A study of Mus musculus with 16 samples.

Results

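The 6 genes Fev, Lmx1b, Gata2, Gata3, En1 and En2 encode transcription factors that set and keep the identity of serotonin neurons. They were taken by gene symbol from the table of normalized counts, and all 6 were among its 14504 genes. RNA came from tissue punches of adult male C57BL/6 mice, taken from the dorsal raphe nucleus (DRN), where most serotonin neurons that project to the forebrain lie. In all, 16 libraries fell into 6 groups, and each library is 1 mouse by the study's methods. Control mice received saline (con_sal, 3 libraries) or 2 mg/kg of the synthetic glucocorticoid dexamethasone (DEX; con_dex, 3 libraries) 6 h before tissue collection, without social defeat. Mice defeated by aggressive CD1 mice over 30 days (chronic social defeat stress) were split by their behavior into a passive coping (PS, dep1 in the labels) and an active coping (AS, dep2) phenotype. They received the same injections: PS_sal had 2 libraries, PS_dex 3, AS_sal 3 and AS_dex 2. Libraries are named by group and by the number in their label.

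In development, serotonin neurons arise from ventral hindbrain progenitors that switch on Gata2, Gata3, Lmx1b and Fev as they leave the cell cycle. Fev, an ETS-domain factor also called Pet1, and Lmx1b, a LIM-homeodomain factor, stay on in adult serotonin neurons and keep up the genes for serotonin synthesis, reuptake and autoreceptors. The zinc-finger factors Gata2 and Gata3 act upstream of Fev, and both are also found in GABA neurons of the midbrain and hindbrain. The homeodomain factors En1 and En2 pattern the midbrain and anterior hindbrain and are kept in rostral serotonin neurons as well as in midbrain dopamine neurons. Each gene's level in these bulk samples therefore sums over more than 1 cell type to a differing degree.

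The libraries held 38207157 to 62447298 reads in the listed genes. Fkbp5, a direct target of the glucocorticoid receptor, checked the treatment labels: its normalized count was 5578 to 6958 in the 8 DEX libraries and 1241 to 1536 in the 8 saline libraries. Tph2, the rate-limiting enzyme of neuronal serotonin synthesis, had 91764 (AS_dex_42) to 182191 (AS_sal_40) normalized counts, and Slc6a4, the serotonin transporter, had 74627 to 129820, so markers that define serotonin neurons were abundant in every library. By its methods, the study left out DRN samples with low Tph2, which narrows the spread of Tph2. The samples left out all came from DEX-treated PS and AS mice, so this filter removed samples from DEX groups only. Its part in the DEX differences below was not tested. The study kept more DRN samples than the 16 analysed here. Single libraries of both treatments stood apart in ways that touch the results below. Of all libraries, PS_dex_64 had the highest sum of ependymal cilia markers (19700). It also had the lowest sums of oligodendrocyte (133887), endothelial (4597) and microglia markers (6415). In con_sal_104, the astrocyte glutamate transporter Slc1a2 (23633 normalized counts, median over libraries 49655) and the dendritic protein Map2 (31021, median 52489.7) were the lowest of all libraries. Both have long exons in sum (13133 and 16449 bases), as does Flt1 (13504), also lowest there. Tubb3 (1868) and Fev (1617, the shortest of the 6 factors) were highest there. The long Gja1 (10257) was lowest in PS_dex_6 instead. Whether exon length plays a part in the con_sal_104 values was not tested. Th, which marks dopamine neurons, had 741 normalized counts in PS_sal_68 against 1875 to 4527 in the other libraries, and Slc17a8, the vesicular glutamate transporter that many serotonin neurons carry, had 5085 in con_sal_114 against 9296 to 20800.3 elsewhere.

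The promoters of Fev, Gata2 and Lmx1b are shown because Fev and Lmx1b had the highest r with Gata2 among the 6 genes (0.93 and 0.84). En1 (0.77) and Gata3 (0.62) also covaried most with Gata2, and their windows are described but not printed. They are the 250 bases before the RefSeq transcription start (build GRCm38.p6), read 5′ to 3′ on the gene's strand. Capitals mark matches to a GATA word (AGATAA and AGATAG, or TGATAA and TGATAG), the ETS word CGGAA or the homeodomain word TAATTA. Each word was searched on both strands, and other forms of ETS and homeodomain sites were not searched.
Fev, chr1:74885409-74885658, minus strand: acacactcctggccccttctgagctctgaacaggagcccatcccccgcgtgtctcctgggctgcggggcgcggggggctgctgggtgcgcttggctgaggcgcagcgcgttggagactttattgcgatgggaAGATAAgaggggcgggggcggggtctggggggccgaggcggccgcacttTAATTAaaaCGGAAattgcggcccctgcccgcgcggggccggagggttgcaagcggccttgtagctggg
Gata2, chr6:88193641-88193890, plus strand: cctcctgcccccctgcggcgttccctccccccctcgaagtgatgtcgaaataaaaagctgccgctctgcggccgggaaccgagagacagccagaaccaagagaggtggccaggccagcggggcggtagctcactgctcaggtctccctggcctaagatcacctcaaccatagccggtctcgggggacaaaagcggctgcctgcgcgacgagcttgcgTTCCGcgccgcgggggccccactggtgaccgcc
Lmx1b, chr2:33641099-33641348, minus strand: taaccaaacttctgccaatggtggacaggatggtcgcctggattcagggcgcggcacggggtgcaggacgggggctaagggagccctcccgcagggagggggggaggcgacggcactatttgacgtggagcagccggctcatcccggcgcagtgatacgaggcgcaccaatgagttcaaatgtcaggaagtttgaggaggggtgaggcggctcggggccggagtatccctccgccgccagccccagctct

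The RefSeq start of Lmx1b lies upstream of the GENCODE gene start used below. The Fev window held all 3 words: AGATAA at 118 to 113 bases before the start, TAATTA at 69 to 64 and CGGAA at 60 to 56, with no overlap between them. The Gata2 window held CGGAA on its minus strand (TTCCG, 33 to 29 bases before the start), and the Lmx1b window held none of these words. Such matches are common: of 32851 promoter windows of this length, 26.5% held a GATA word, 25.2% CGGAA and 4.84% TAATTA. RefSeq windows were matched for 5 of the 6 genes (6 windows, since Gata2 has a second one). The windows of Gata3 and En1 each held 1 CGGAA on the minus strand, and the second Gata2 window held no match. The word AGAACA, 1 arm of the glucocorticoid response element, was in none of the 6 windows and in 16.1% of all windows, and the full palindromic element was in 3 of all 32851. These letters were chosen with the windows in view, and a match is a description only.

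All 6 genes were expressed at moderate to high levels. Per kilobase of exon (GENCODE vM21, GRCm38), the mean over the 16 libraries was 3056 ± 932 normalized counts for Fev (SD, n = 16), which placed it above 95.9% of all genes with a length. En1 followed with 1503 ± 189, then Gata3 with 861 ± 83.0, Lmx1b with 829 ± 152, Gata2 with 678 ± 92.2 and En2 with 584 ± 83.3. Fev lay above En1, and En1 above Gata3, in 16 of 16 libraries. Gata3 lay above Lmx1b in only 9 of 16 libraries, so these neighbors in the order did not differ beyond their spread, whereas Lmx1b lay above Gata2 and Gata2 above En2 in 14 of 16 each.

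The genes differed in how steady they were between mice of the same group. The residual SD on the log2 scale, after removing group means, was 0.376 for Fev and 0.307 for Lmx1b. These were larger than for 89.0% and 81.6% of the 12863 genes with a mean of at least 100. En2 (0.237) and Gata2 (0.226) were nearer the middle, and En1 (0.166) and Gata3 (0.160) were steadier than most of these genes, with percentiles of 38.6 and 35.9. Over all libraries Fev ranged 2.77-fold and Gata3 1.40-fold.

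Fev (chromosome 1, 74881509 to 74885419, minus strand) was the most variable member. Its normalized counts were 5725, 9636 and 3483 in con_sal_102, con_sal_104 and con_sal_114, 6631 and 4293 in PS_sal_62 and PS_sal_68, and 5648, 4849.9 and 5223 in AS_sal_14, AS_sal_40 and AS_sal_8. With DEX they were 3813, 4274 and 4499.5 in con_dex_101, con_dex_116 and con_dex_122, 3876, 4303 and 4206 in PS_dex_34, PS_dex_6 and PS_dex_64, and 4866 and 3743 in AS_dex_38 and AS_dex_42. The control saline group thus held both the highest and the lowest value, 5 of 8 saline libraries lay above every DEX library, and the treatments overlapped.

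Lmx1b (chromosome 2, 33560965 to 33640511, minus strand) had normalized counts of 4505, 4262 and 2891 in con_sal_102, con_sal_104 and con_sal_114, 5752 and 3713 in PS_sal_62 and PS_sal_68, and 4864, 2868 and 4551 in AS_sal_14, AS_sal_40 and AS_sal_8. With DEX the values were 3685, 3373 and 4717 in con_dex_101, con_dex_116 and con_dex_122, 3816, 4057 and 3893 in PS_dex_34, PS_dex_6 and PS_dex_64, and 4198 and 3592 in AS_dex_38 and AS_dex_42. The 2 lowest libraries, AS_sal_40 and con_sal_114, and the highest, PS_sal_62, were all saline libraries.

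Gata2 (chromosome 6, 88193891 to 88207032, plus strand) had normalized counts of 4000.4, 4760.04 and 2927 in con_sal_102, con_sal_104 and con_sal_114, 4473 and 3119 in PS_sal_62 and PS_sal_68, and 3775, 3213 and 3551 in AS_sal_14, AS_sal_40 and AS_sal_8. With DEX they were 3482, 3445 and 4074 in con_dex_101, con_dex_116 and con_dex_122, 3216, 3731 and 3660.1 in PS_dex_34, PS_dex_6 and PS_dex_64, and 3878 and 3244 in AS_dex_38 and AS_dex_42. Its extremes fell in the same libraries as those of Fev, con_sal_104 and con_sal_114.

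Its paralog Gata3 (chromosome 2, 9857078 to 9890034, minus strand) stayed between 2823 (con_dex_101) and 3943 (con_dex_122) normalized counts. The saline values were 3444, 3676 and 3029 in controls, 3696 and 3414 in PS and 3633, 3726 and 3307 in AS, in the same library order, and the DEX values were 2823, 3169 and 3943, then 2987, 3784 and 3063, then 3639 and 3444. Its full range fell within 1 group, the DEX-treated controls.

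En1 (chromosome 1, 120602418 to 120607992, plus strand) had saline values of 4113, 5179 and 4108 normalized counts in controls, 4758 and 3202 in PS and 3909.5, 4217 and 3917 in AS. The DEX values were 3725, 3879 and 4007, then 3340.4, 3654 and 3528, then 4015 and 3555. As with Fev, 5 of 8 saline libraries lay above all DEX libraries, but the lowest value of all, PS_sal_68, was also saline.

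En2 (chromosome 5, 28165694 to 28172166, plus strand) was the lowest member. Its saline values were 2105, 2258 and 2362 normalized counts in controls, 2532 and 1499.7 in PS and 2020.3, 1459 and 2127 in AS, and its DEX values were 1937, 1979.99 and 2090.2, then 1803, 2071 and 2332, then 2122 and 2377. PS_sal_68 and AS_sal_40 stood below all other libraries. Transcripts on the opposite strand lie within Gata3, Lmx1b and En2 in the annotation. The study reports high strand specificity of the reads in each sample, but whether reads were counted by strand is not stated. These 3 values may therefore include antisense reads.

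**Figure D1:**
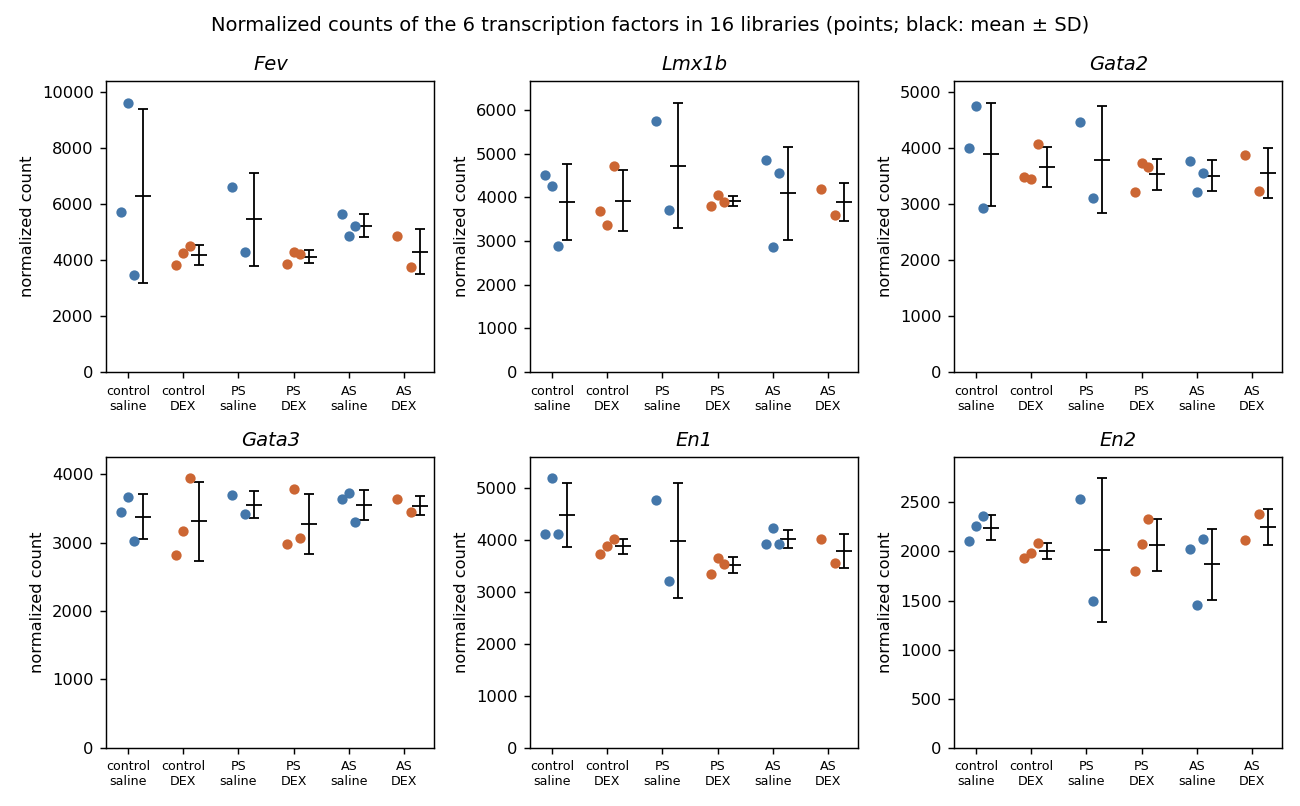
Normalized counts (y axis, from 0) of the 6 genes in each library (points, blue saline, orange DEX) by group (x axis), with the group mean ± SD in black (n = 2 or 3). The saline libraries as a whole have a wider range than the DEX libraries for every gene but Gata3, and no gene separates the treatments.

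To ask whether DEX altered the identity factors, DEX and saline libraries were compared with limma on log2(normalized count + 1), with 1 mean per group and adjustment over all genes by the Benjamini-Hochberg (BH) method. None of the 6 genes was called at an adjusted p under 0.1 in DEX against saline averaged over the 3 phenotypes, where 4.31% of all genes were called. Fev had the largest difference: it was 0.77-fold in DEX (log2 -0.38, 95% CI -0.73 to -0.02; unadjusted p = 0.0409 and adjusted p = 0.333 in limma). An unadjusted p under 0.05 was reached by 2033 of the 14504 genes. In bulk tissue, fewer serotonin neurons in a punch and less Fev RNA per neuron cannot be told apart.

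The Fev difference had the same sign in each phenotype, with log2 values of -0.46 in controls (95% CI -1.04 to 0.11), -0.37 in PS (-1.01 to 0.27) and -0.29 in AS (-0.94 to 0.35). With the score of the serotonin function genes held constant, the value in AS turned to 0.064. That score includes known targets of Fev and genes that were themselves called lower with DEX (below). Holding it constant can therefore also take out part of a DEX difference. In PS it was -0.058 without PS_sal_62 and -0.68 without PS_sal_68. None was called in limma, where 1.26%, 0.703% and 0.689% of all genes were called. In controls the difference was -0.83 without con_sal_114 (adjusted p = 0.103 in limma) and -0.09 without con_sal_104. Without con_sal_114, the lowest Fev library, the averaged difference was -0.50 and the adjusted p from limma was 0.0442 (4.75% of all genes called), and with limma's library weights it was -0.41 with an adjusted p of 0.0540 (9.16% called). Over the 26 alternatives it lay between -0.50 and -0.19, the adjusted p between 0.0442 and 0.955, and only these 2 called it. The weakest value came with the score of the serotonin function genes held constant. On the recovered reads the averaged difference was -0.42 with an adjusted p of 0.273 in edgeR (4.29% of all genes called) and 0.143 in DESeq2 (6.23% called).

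The other members moved less. En1 had an averaged log2 difference of -0.15 (95% CI -0.32 to 0.03; adjusted p = 0.436 in limma), which was -0.24 without PS_sal_68 and -0.052 without PS_sal_62. The others were Lmx1b -0.08 (-0.38 to 0.21), Gata3 -0.06 (-0.23 to 0.11), Gata2 -0.04 (-0.27 to 0.18) and En2 0.07 (-0.17 to 0.30). The sign for Lmx1b, Gata2 and En2 turned when single libraries were left out, and that for Gata3 when the serotonin function score was held constant. Within single phenotypes the 15 differences of these 5 genes lay between -0.24 and 0.28 on the log2 scale, with the smallest unadjusted p at 0.149. The lowest, Lmx1b in PS, turned to 0.078 without PS_sal_62. The median over the 6 genes was -0.07 on the log2 scale and over all genes -0.0026.

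Chronic stress was examined in the same fit, to see whether defeat or the coping phenotype went with the level of these factors. None of the 6 genes was called by limma in stressed against control mice averaged over phenotype and treatment, where 0% of all genes were called and 616 had an unadjusted p under 0.05. None of the 6 had one, and edgeR and DESeq2 called none of them either. The log2 differences were 0.09 for Lmx1b (95% CI -0.21 to 0.39), 0.06 for Gata3 (-0.11 to 0.24), -0.06 for Fev (-0.43 to 0.30), -0.06 for Gata2 (-0.29 to 0.17), -0.07 for En2 (-0.31 to 0.17) and -0.13 for En1 (-0.30 to 0.05). The sign of the Fev, Lmx1b, Gata2 and En2 values turned when single libraries were left out.

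Across PS, AS and control taken in pairs within saline and within DEX, the 36 log2 differences of the 6 genes lay between -0.28 (En2, AS against control in saline) and 0.28 (Lmx1b, PS against control in saline), with a lowest adjusted p of 0.612 in limma. The Lmx1b value turned to -0.039 without PS_sal_62. These comparisons called 0% of all genes, apart from AS against control in DEX with 0.00689%. The tests of whether the DEX effect differed between phenotypes called no gene either (0% in each of the 3). The largest such difference among the members was that of En2 between AS and control (log2 0.45, 95% CI -0.12 to 1.02; unadjusted p = 0.115 in limma), with En2 lower with DEX in controls (-0.16) and higher in AS (0.28), neither called.

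Over all 14 comparisons and 6 genes, 84 values in all, limma called 0 and gave an unadjusted p under 0.05 for 1. On the reads recovered from the table, edgeR called 0 (1 under 0.05) and DESeq2 called 0 (2 under 0.05), and these were Fev each time.

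**Figure D2:**
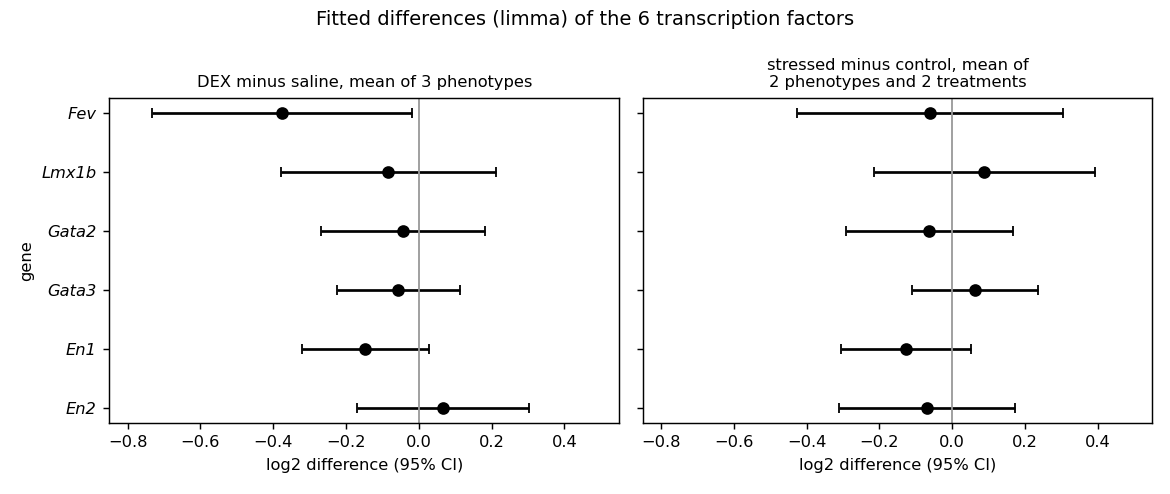
Fitted log2 differences (x axis) with 95% confidence intervals for the 6 genes (y axis), for DEX minus saline (left) and stressed minus control (right). All intervals include 0 except that of Fev for DEX, which ends at -0.02 before adjustment over genes.

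Ratios between paralogs do not depend on how a library is scaled. The Gata3 to Gata2 ratio ran from 0.772 to 1.16 over the libraries, and its log2 value differed between DEX and saline by -0.01 (exact permutation test within phenotype, two-sided p = 0.871) and between stressed and control mice by 0.12 (exact permutation test within treatment, p = 0.166). The En1 to En2 ratio ran from 1.496 to 2.89. It was lower with DEX by 0.21 on the log2 scale, a difference of -0.21, in an exact permutation test with p = 0.07, and with single libraries left out the difference lay between -0.27 without AS_dex_38 and -0.15 without AS_sal_40 (exact permutation p = 0.109 and 0.103). The exact p was lowest without con_sal_114 (0.022) and highest without AS_dex_42 (0.266). Between stressed and control mice it differed by -0.05 (exact permutation p = 0.649).

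The members were then compared with each other over the 16 libraries, on deviations from the group means. This takes out mean differences between treatments and phenotypes, but groups with a wider spread still weigh more. For Fev the deviations ran from -0.73 to 0.74 in con_sal and from -0.13 to 0.10 in con_dex. All 15 pairs had a positive Pearson r, with a median of 0.546, against a median of -0.0028 over 82721953 pairs of the 12863 genes with a mean of at least 100. Of the 15 pairs, 9 had r above 0.5, against 16.5% of all gene pairs. On plain log2 values Gata3 and En2 had r = -0.0035 and the other 14 pairs were positive. The points share library, depth and scaling, and groups of 2 contribute mirror-image points, so the correlations rest on fewer independent values than 16.

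The tightest pair was Fev and Gata2, with r = 0.93 and Spearman's rho = 0.93 (exact permutation within groups, p = 0.00154 for r and 0.00251 for rho; BH over 15 pairs 0.0231 and 0.0164). Only 0.241% of all gene pairs reached that r, and Gata2 ranked 4th in likeness to Fev among genes with a mean of at least 100. It stayed between 0.88 and 0.95 when any library was left out and was 0.94 without the 2 libraries farthest from the median of Fev, con_sal_104 and con_sal_114. On plain log2 values, group differences included, r was 0.83 and fell to 0.64 without con_sal_104 and PS_sal_62.

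Lmx1b and Gata2 came next (r = 0.84, rho = 0.83, exact permutation p = 0.00367 and 0.00193, BH 0.0246 and 0.0164), and r was 0.83 without the 2 farthest libraries. Fev and Lmx1b had r = 0.67 and rho = 0.75 (exact permutation p = 0.0270 and 0.0164, BH 0.0675 and 0.0410), with r between 0.51 without con_sal_114 and 0.81 without con_sal_104. All 3 genes lay above their group means in con_sal_104, PS_sal_62, AS_sal_14, AS_dex_38, con_dex_122 and PS_dex_6. They all lay below them in con_sal_114, PS_sal_68, AS_sal_40, AS_dex_42, con_dex_101 and PS_dex_34.

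Gata3 followed the other factors more loosely. Its r was 0.62 with Gata2 (rho = 0.69, exact permutation p = 0.0112 for each, BH 0.0336), 0.55 with Fev (rho = 0.66, exact p = 0.00617, BH 0.0246) and 0.51 with En1 (rho = 0.68, exact p = 0.00656, BH 0.0246). Leaving out the 2 farthest libraries gave r = 0.57, 0.46 and 0.58 in the same order.

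En1 had r = 0.77 with Gata2 (rho = 0.75, exact permutation p = 0.0768, BH 0.144) and 0.76 with Fev (rho = 0.81, exact permutation p = 0.0336, BH 0.0719), and without the 2 farthest libraries r was 0.72 and 0.84. En2 stood most apart. Its r was 0.60 with Lmx1b, 0.48 with En1, 0.47 with Gata2, 0.28 with Fev and 0.06 with Gata3, none with a BH value under 0.1 in the exact permutation test, and its r with its own paralog En1 became -0.15 without PS_sal_62 and PS_sal_68.

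**Figure D3:**
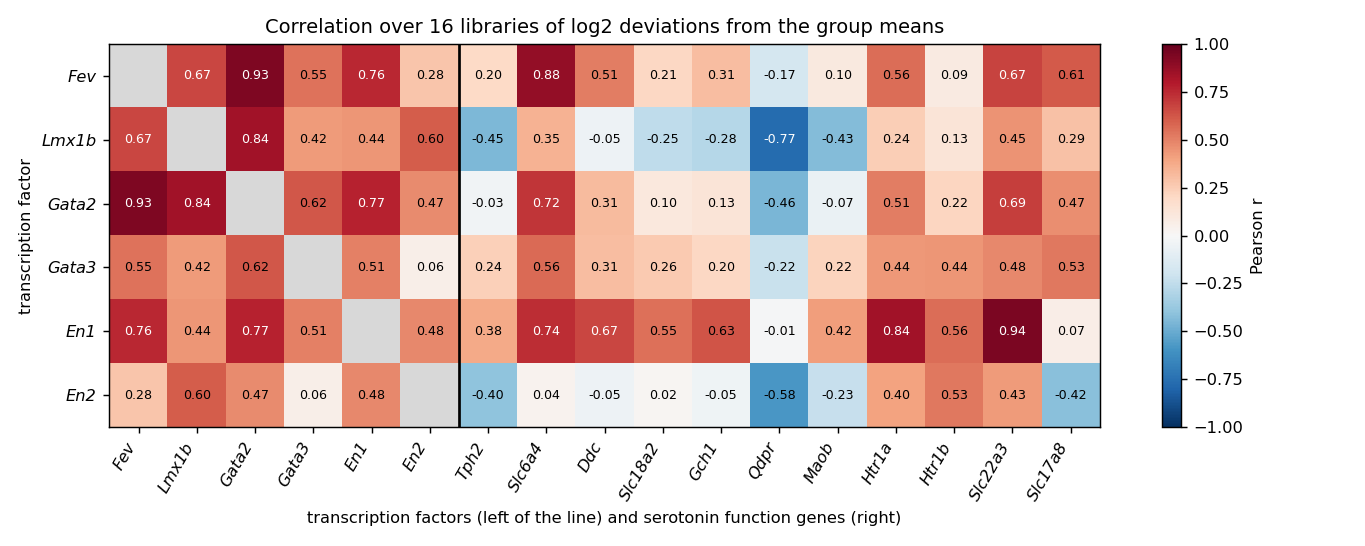
Pearson r over 16 libraries of log2 deviations from the group means between the 6 genes (rows) and, as columns, the same 6 genes (left of the line; grey, the gene itself) and 11 genes of serotonin synthesis, transport and signaling (right). Among the 6 genes, Fev and Gata2 have the highest r (0.93), and the Tph2 column runs from -0.45 to 0.38.

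Tph2 did not share this pattern. Its r with the 6 factors ran from -0.45 (Lmx1b) to 0.38 (En1), with 0.20 for Fev and -0.03 for Gata2, and the only unadjusted p under 0.05 was that of En1 (exact permutation p = 0.0332, BH over 6 genes 0.199; rho = 0.42, p = 0.0889). In AS_sal_40, which had the most Tph2, Fev had 4849.9 normalized counts and Lmx1b its lowest value of 2868. In con_sal_114, Fev was lowest at 3483 while Tph2, at 123390, was higher than in 9 of the other libraries. With Tph2 regressed out, the median correlation among members of the set was 0.645.

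Among the other serotonin function genes, Slc6a4 was the one most like Fev (r = 0.88, rho = 0.72, exact permutation p = 0.0268), and Slc6a4, like Fev, was highest in con_sal_104 (129820) and lowest in con_sal_114 (74627). En1 was most like Slc22a3, an organic cation transporter that takes up serotonin at high concentrations (r = 0.94, rho = 0.84, exact permutation p = 0.0116). Slc22a3 ranked 1st for En1 among genes with a mean of at least 100. En1 was also like the autoreceptor gene Htr1a (r = 0.84; exact permutation p = 0.00965). Lmx1b ran against Qdpr, which regenerates the cofactor of Tph2 (r = -0.77; rho = -0.73, exact permutation p = 0.00405). Of these 66 pairs 10 had an unadjusted p under 0.05, and the smallest BH value over the 66 was 0.181 in the exact permutation test, so none passed on deviations. On plain log2 values, which hold the group differences, 9 of the 66 had a BH value under 0.1 in the permutation test, among them En1 with Slc22a3 (r = 0.88, BH 0.00066) and Htr1a (0.80, BH 0.00693), and Fev with Slc22a3 (0.76, BH 0.00968) and Slc6a4 (0.75, BH 0.0205). On deviations, without the 2 farthest libraries, r was 0.61 for Fev with Slc6a4, 0.84 for En1 with Slc22a3, 0.69 for En1 with Htr1a and -0.71 for Lmx1b with Qdpr.

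**Figure D4:**
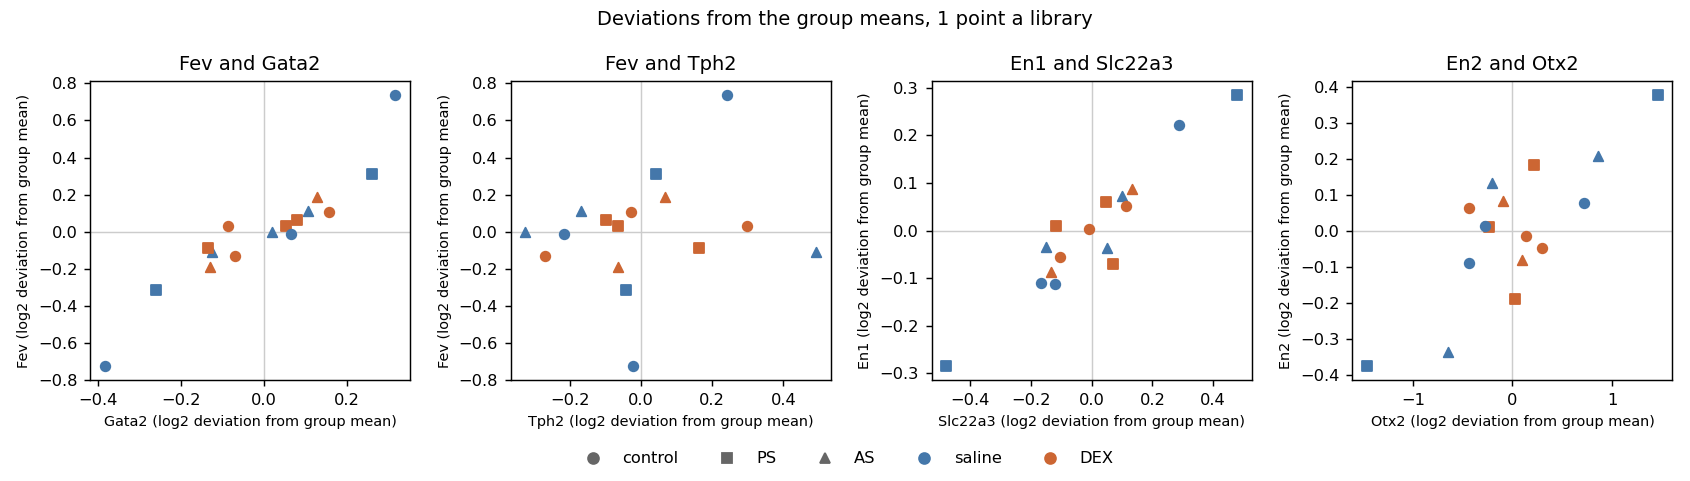
Log2 deviations from the group means, 1 point per library (shape, phenotype; color, treatment), for Fev against Gata2 and Tph2, En1 against Slc22a3 and En2 against Otx2. The Fev and Gata2 points lie along 1 line (r = 0.93), while Fev and Tph2 scatter (r = 0.20).

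The 11 serotonin function genes include known targets of Fev and Lmx1b, such as Tph2 and Slc6a4. Averaged over phenotypes, 3 of 11 fell with DEX and none rose, against 4.31% of all genes called, 2.78% higher and 1.53% lower. The median log2 difference was -0.16, against -0.0026 over all genes. The 3 were Slc22a3 (log2 -0.51, 95% CI -0.77 to -0.26; adjusted p = 0.0310 in limma), Qdpr (-0.34, -0.54 to -0.15; adjusted p = 0.0632) and Htr1a (-0.25, -0.39 to -0.10; adjusted p = 0.0677). Tph2 (-0.18), Slc6a4 (-0.07) and the other 6 (Ddc, Slc18a2, Gch1, Maob, Htr1b and Slc17a8, -0.20 to 0.03) did not pass. Slc22a3 had 2239 to 2986 normalized counts with DEX and 2435 to 4747 with saline, and 7 of 8 saline libraries lay above all DEX libraries. The Slc22a3 call was lost without AS_dex_42 (adjusted p = 0.142 in limma). The Qdpr call was lost without con_dex_101, con_dex_122, con_sal_104, PS_dex_64, PS_sal_62, PS_sal_68, AS_dex_38 or AS_dex_42 (adjusted p 0.104 to 0.214). The Htr1a call was lost without con_dex_101, con_dex_122, con_sal_104, PS_dex_34, PS_dex_64, PS_sal_62, AS_dex_38 or AS_dex_42 (0.108 to 0.265) and with Tph2 held constant (0.123). With the serotonin function score held constant, which contains these genes, all 3 calls were lost (adjusted p = 0.168 for Slc22a3, 0.330 for Qdpr and 0.333 for Htr1a). Markers of other cell types fell with DEX as well, with 3 of 8 microglia markers (median log2 difference -0.34), 2 of 8 oligodendrocyte markers (-0.16) and 1 of 8 endothelial markers (-0.16) called lower, and their part in these values was not tested. None of the 11 was called for stress (0% of all genes).

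The 13 further lineage regulators analysed were called in none of the 14 comparisons in limma. The 5 with the highest means were Hdac2 (2463 to 3566 normalized counts), the GABA lineage factor Tal1 (995 to 2060.3), the progenitor factor Sox2 (839.97 to 2294), the midbrain factor Otx2 (91.9 to 1307) and Nr2f1 (369 to 869).

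Among the 6 factors, En2 varied most with these regulators, though not past the correction for multiple tests. Its r with their mean score was 0.91 (rho = 0.77, exact permutation p = 0.0316, BH over 78 pairs 0.705; 0.83 without the 2 farthest libraries), and with Otx2 alone it was 0.79 (exact permutation p = 0.116). The same score had r = 0.72 with Lmx1b, 0.55 with Gata2, 0.49 with En1, 0.37 with Fev and -0.07 with Gata3. Both libraries with the least En2 were low in the midbrain factors Otx2 and Foxa2. Barhl1 is given as well, but it was picked as the gene most like En2. Its low values there follow from that choice. PS_sal_68 had 91.9 normalized counts of Otx2, 48.7 of Foxa2 and 14.1 of Barhl1, and AS_sal_40 had 297, 143 and 38.4, against 403 to 1307, 198 to 650.03 and 68.9 to 224 in the other libraries. The 7 of 8 dopamine neuron markers in the table summed to 17465 in PS_sal_68 and to 21750 to 29437 elsewhere, with r = 0.69 with En2 (exact permutation p = 0.232). The part of tissue composition in the En2 values was not tested.

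The other marker lists gave these values. Summed normalized counts of 8 GABA neuron markers, among them Gad2 (15929 to 29714), were 53664 to 96068, and their score had r = -0.16 with Gata2 and -0.30 with Gata3. The 8 oligodendrocyte markers summed to 133887 to 223035, with r = -0.63 with En2 and -0.54 with En1. The 8 microglia markers summed to 6415 to 7932 in the DEX libraries and 7208 to 11284 in the saline libraries. The 9 ependymal cilia markers had the widest range, 1839 in PS_dex_6 to 19700 in PS_dex_64, which are libraries of the same group. Their score had r = 0.37 with Fev, and holding it constant gave a log2 DEX difference of -0.39 for Fev. The 8 pan-neuronal markers summed to 250512 (con_sal_114) to 321005 (PS_sal_68). No listed marker in the table was at 0 in any library, and none of 78 pairs of a factor with a list had a BH value under 0.1 in the exact permutation test on deviations.

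For each factor, the 3 genes with the most similar deviations among 12857 other genes with a mean of at least 100 were named as a description. For Fev these were Adra1b, an alpha-1 adrenergic receptor (r = 0.95), the G protein subunit Gng4 (0.94) and the synaptic vesicle protein Syngr3 (0.94). For Gata2 they were the neurotrophin receptor Ngfr, the Notch modulator Dtx1 and Pigs (0.91 to 0.92). For Lmx1b they were the polysialyltransferase St8sia2, the protocadherin Pcdhgc3 and Bahd1 (0.93 to 0.94).

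En1 was most like Slc22a3, the calcium-binding protein Necab2 and the pentraxin Nptx2 (0.91 to 0.94), and En2 most like the homeodomain factor Barhl1 (0.93), Osbpl11 and Adamtsl2. Gata3 had no close companion: its highest r was 0.81, with Pla2g15, Trim8 and Dok4, and only 4 genes passed 0.8, against 38 for En2, 49 for En1, 89 for Gata2, 143 for Fev and 389 for Lmx1b. The mean score of the 6 factors was most like Ptprn, a dense-core vesicle protein, Ajap1 and Pigs (0.92 each).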

How the data were processed

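Libraries of polyA RNA from 16 DRN punches were analysed. The study describes further DRN libraries, which were not analysed here. The authors trimmed reads with fastp 0.20.1, aligned them with HISAT2 2.2.1 to mm10 (GRCm38), counted genes with featureCounts (Subread 2.0) and normalized with DESeq2 1.36.0. The deposited table holds this signal, read counts per gene scaled with each library's own size factor. The labels and the study's methods name different RNA reagents and sequencers for the DRN. The authors' own fold changes and p-values were not used.

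Multiplied by its size factor, each library gave 100% whole reads (tolerance 0.01), so edgeR 4.0.16 and DESeq2 1.42.0 could be run as alternatives to limma 3.58.1 on log2(normalized count + 1), fitted over 6 group means with eBayes and a trend (10 residual and 3.88 prior degrees of freedom) and BH over 14504 genes. Genes were called at an adjusted p under 0.1, the study's threshold. The scale understates changes of low genes. The script was tested on simulated data. Stress averaged is the mean of PS and AS minus control over both treatments.

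Correlations used log2 deviations from group means, with all 5184 arrangements within groups as an exact two-sided permutation test, or plain values with 100000 permutations. Exon lengths came from GENCODE vM21 (14493 genes), promoters from RefSeq. Library numbers pair no libraries. P-values cover only the spread between these mice.

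Named genes were the 6 factors, the 3 genes most like each, all serotonin function genes, called or highest lineage regulators, and Fkbp5. Th and Gad2 come from their marker lists. Slc1a2, Map2, Flt1, Tubb3, Gja1 and Foxa2 fell outside these rules and are given for their values in single libraries. Members and lists were chosen with earlier results of these data known.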

Additional observations from a re-analysis of the deposited data

How the results depend on the processing

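Groups held 2 or 3 mice, and single libraries, both control and stressed, moved several values. The number of the 6 factors called for DEX averaged over phenotypes was 0 in the reported fit, 1 with library weights and 0 to 1 over the fits that left out 1 library each. In the other 13 comparisons no setting changed the count of 0. Of 2256 alternative values of the 6 factors over all comparisons, 153 had the opposite sign, 10 of them where the reported log2 value was at least 0.2 in size. With the serotonin function score held constant, the DEX difference became 0.032 for Gata2 and 0.012 for Gata3, that of Fev in AS 0.064, and the stress difference of Fev 0.066. With library weights the DEX difference of En2 became -0.0095, and with Tph2 held constant that of Slc6a4 became 0.026. Leaving out 1 library each gave DEX differences of -0.19 to 0.022 for Lmx1b, -0.13 to 0.044 for Gata2, -0.059 to 0.19 for En2 and -0.12 to 0.0087 for Slc6a4. It gave stress differences of -0.24 to 0.12 for Fev, -0.012 to 0.17 for Lmx1b, -0.16 to 0.017 for Gata2 and -0.16 to 0.026 for En2. The Gata3 to Gata2 log ratio then ranged from -0.081 to 0.054 for DEX, and the En1 to En2 log ratio from -0.27 to -0.15 for DEX and from -0.11 to 0.00101 for stress. The cause of these changes was not tested. No paired analysis was possible because the library numbers differ between groups.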
